A study of Mus musculus with 2 samples.

Results

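The region described here is the stretch of mouse chromosome 9 that carries the matrix metalloproteinase genes Mmp13, Mmp12, Mmp3, Mmp10 and Mmp8, and the measurement is where c-Fos was detected on it. The members are the c-Fos ChIP-seq peaks (ChIP-seq sequences the DNA recovered with an antibody) whose centre lay between positions 7100000 and 7700000 of chromosome 9 in the mouse build mm9. The list held 1 such peak out of 10870 in all, of which 523 were on chromosome 9. The rule for the window uses positions alone and no score or count. The cluster was picked for description with earlier results of these data known.

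The cells were mouse bone marrow mesenchymal stem cells (mBMSCs), stromal cells that can give rise to bone and cartilage. They lacked p53, a tumour suppressor, and expressed cFos, and they had been passaged fewer than 20 times. The series holds 1 ChIP library made with 10 ug of an anti-c-Fos antibody and 1 input library of DNA that was not immunoprecipitated. Both libraries carry the p53 knockout and the cFos expression, so neither factor can be compared here. Neither how c-Fos was expressed nor whether the cells come from 1 clone is stated in the sources used here. A peak list holds no marker genes against which the cell type could be checked.

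Matrix metalloproteinases are zinc-dependent proteases that cut collagen and other matrix proteins outside the cell. c-Fos and its Jun partners make up AP-1, a transcription factor that binds the DNA letters TGANTCA, where N is any base and the middle base is most often G or C. The promoters of collagenase and stromelysin genes are textbook AP-1 targets. Mmp13 encodes collagenase 3, which is made by hypertrophic cartilage cells, osteoblasts and many tumours and cuts fibrillar collagen. Mmp3 and Mmp10 encode stromelysins 1 and 2, which cut a broad range of matrix proteins and activate other family members. Mmp12 encodes macrophage elastase, and Mmp8 encodes the collagenase best known from neutrophils.

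The 100 bases before the RefSeq starts of the 5 genes show what AP-1 could recognise there. They are given 5′ to 3′ on the gene's strand (the plus strand of chromosome 9 for each), from position -100 to -1, with AP-1 matches in capitals. They come from RefSeq on GRCm38.p6. This is another build than that of the peaks, so only relative positions are given and no peak was placed on these sequences. Mmp12 has a pair of RefSeq starts, numbered in the order in which the promoter entries were listed.
Mmp13: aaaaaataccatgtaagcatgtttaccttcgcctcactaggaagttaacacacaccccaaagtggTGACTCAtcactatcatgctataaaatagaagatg
Mmp3: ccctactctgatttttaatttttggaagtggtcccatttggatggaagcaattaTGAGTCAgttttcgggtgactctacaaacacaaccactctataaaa
Mmp10: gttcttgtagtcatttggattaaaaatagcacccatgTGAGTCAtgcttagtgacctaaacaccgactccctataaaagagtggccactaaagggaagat
Mmp12, start 1: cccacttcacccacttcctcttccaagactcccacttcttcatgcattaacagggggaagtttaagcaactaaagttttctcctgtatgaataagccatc
Mmp12, start 2: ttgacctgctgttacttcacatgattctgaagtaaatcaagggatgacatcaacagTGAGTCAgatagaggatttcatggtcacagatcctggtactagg
Mmp8: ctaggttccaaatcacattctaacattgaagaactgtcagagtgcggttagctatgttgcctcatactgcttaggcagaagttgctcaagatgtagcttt

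The Mmp cluster held almost no c-Fos signal that reached the peak list. Its only peak, at chr9:7572666-7573321, was 656 bp wide and had a score of 50.19. The score is the authors' own value for each peak, on a scale that the file does not state. It is used here only to rank peaks within the list, not as a measure of height. The lowest score in the list was 50.01 and the median 101. Only 33 of the 10870 peaks scored lower and 4, this peak among them, scored the same, so 99.7% of the list scored higher. Among the 523 peaks of chromosome 9 it had the lowest score, against a median of 105.

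The peak was also narrow. The median width in the list was 949 bp, and 195 peaks (1.79%) were as narrow as this one or narrower. Peaks of low score had a lower median width than the whole list, so the peak is better set beside them. The 197 peaks that scored under 51 had a median width of 801 bp and ranged from 536 to 1511 bp, and 15 of them (7.61%) were as narrow or narrower. The peak therefore lay near the lower edge of the list in score, and towards the narrow end even among peaks of like score.

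**Figure D1:**
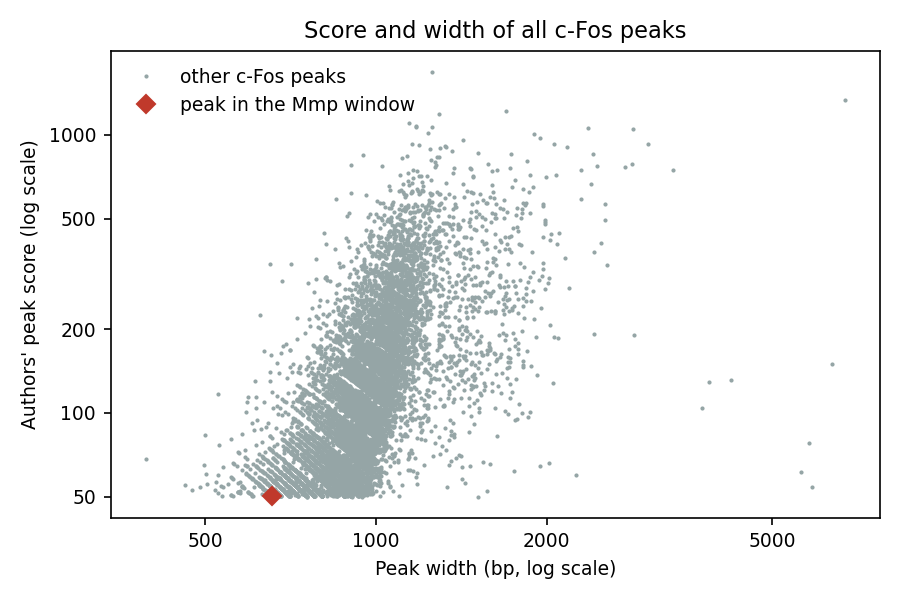
Width in bp and the authors' score of each of the 10870 c-Fos peaks, both on log axes, with 1 point per peak and the peak of the Mmp window as a red diamond. The diamond (656 bp, 50.19) lies at the bottom left, 0.18 above the lowest score in the list.

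No listed peak lay at Mmp13 or Mmp3. The definition of the window states approximate mm9 starts for these 2 genes, about 7272500 for Mmp13 and about 7446000 for Mmp3, and an mm9 gene annotation was not used here. From the Mmp13 start the nearest peak centre was about 300 kb away, and from the Mmp3 start about 127 kb away. In both cases it was the same low-scoring peak at 7572666. In the other direction the nearest listed peak ended 3.86 Mb before the Mmp13 start and 4.03 Mb before the Mmp3 start. Within 100 kb of either start there were 0 peaks.

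These distances were not unusual for the genome as a whole. Of 23900 points laid every 100 kb along the autosomes, 35.7% were as far from a peak centre as Mmp13 or farther, and 54.2% as far as Mmp3 or farther. The median point was 155 kb from a peak, and 7.81% of points lay within 10 kb of one. Evenly spaced points are not gene starts, so this sets the genes against the genome and not against other promoters. For Mmp12, Mmp10 and Mmp8 no mm9 position was at hand and no distance is given. The gene that lies nearest to the peak at 7572666 is not named for the same reason.

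Both starts fell inside a long stretch without peaks. It ran from 3413446 to 7572665 on chromosome 9, a length of 4.16 Mb, and the peak of the window is the first one after it. Of the 10766 gaps between neighbouring autosomal peaks, 47 (0.437%) were at least as long, and the median gap was 63.6 kb. On chromosome 9 only 1 of 522 gaps was longer. Long gaps cover much sequence all the same: those at least this long made up 11.9% of the autosomal span, and the longest measured 10.8 Mb. Before the gap, chromosome 9 held 2 peaks, with scores of 74.01 (chr9:3404194-3405147) and 63.21 (chr9:3412612-3413445). How much of the sequence before them could hold a peak was not examined.

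On the other side the next peak, chr9:8003089-8004056, scored 75.51 and lay 431 kb from the peak of the window, centre to centre. The median autosomal peak had a neighbour at 27.1 kb, and 2.35% of autosomal peaks were as far from their nearest neighbour as this one or farther. Further along, the peak at chr9:8443153-8444009 scored 59.92 and the peak at chr9:9048494-9049196 scored 50.47. The first peak with a score of at least 100 beyond the window was chr9:9240868-9241963, with a score of 391.44, at 1.54 Mb from the window's edge. No peak with such a score lay on the other side, where the only listed peaks were those before the gap. The cluster was thus flanked by few peaks, and those nearest to it scored below the list's median.

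The sparseness reached well beyond the cluster. Within 1 Mb of the peak of the window there were 2 other peaks, where the median autosomal peak had 14, and 3.02% of autosomal peaks had as few. Within 2 Mb there were 6, where the median was 26, and 3.64% had as few. Within 5 Mb there were 9, where the median was 54, and 0.909% had as few. Each of these compares with places that already hold a peak, which favours dense regions.

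**Figure D2:**
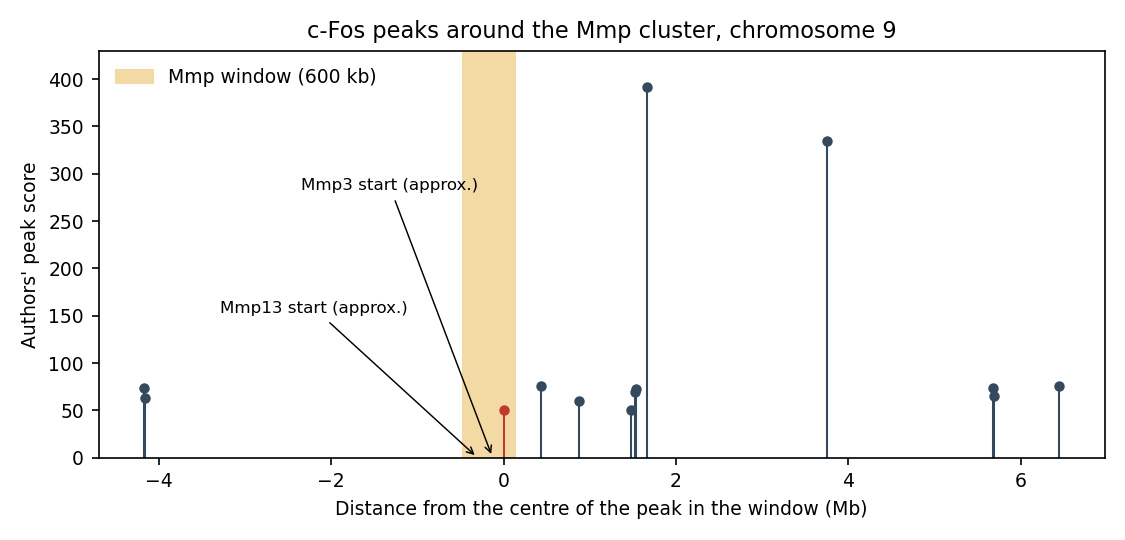
Authors' score of each c-Fos peak around the Mmp cluster (vertical lines with points) against its distance in Mb from the centre of the window's only peak, shown in red. The shaded band is the 600 kb window and arrows mark the approximate Mmp13 and Mmp3 starts, which lie in the 4.16 Mb stretch without peaks to the left of the red peak.

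Set beside the rest of the autosomes, the number of peaks at the cluster was low but common, and its score was at the bottom. The autosomes were laid out in 3966 windows of 600 kb, with the Mmp window as 1 of them. At least 1 peak was present in 64.3% of the windows, so the presence of a peak in the Mmp window is no feature of it. The median window held 2 peaks, the upper quartile was 4 and the highest number was 21. There were 2006 windows (50.6%) with more peaks than the Mmp window, 543 (13.7%) with exactly 1 and 1417 (35.7%) with none. On chromosome 9, 65 of 200 windows held none and 30 held 1.

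By score, 2545 of the 2549 windows with a peak had a higher best peak than the Mmp window. The median of the best score was 194. Among the 543 windows with a single peak, the median score was 90.6 and 4 (0.737%) had a peak that scored 50.19 or less. Beside the Mmp window these were 10100000 to 10700000 on chromosome 1 (score 50.06), 88700000 to 89300000 on chromosome 7 (50.16) and 103700000 to 104300000 on chromosome 11 (50.19). A list that began at a slightly higher score would have left the Mmp window empty, as were 35.7% of windows. The ranks come from a single ChIP library, with no replicate to give an error, and were not tested.

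**Figure D3:**
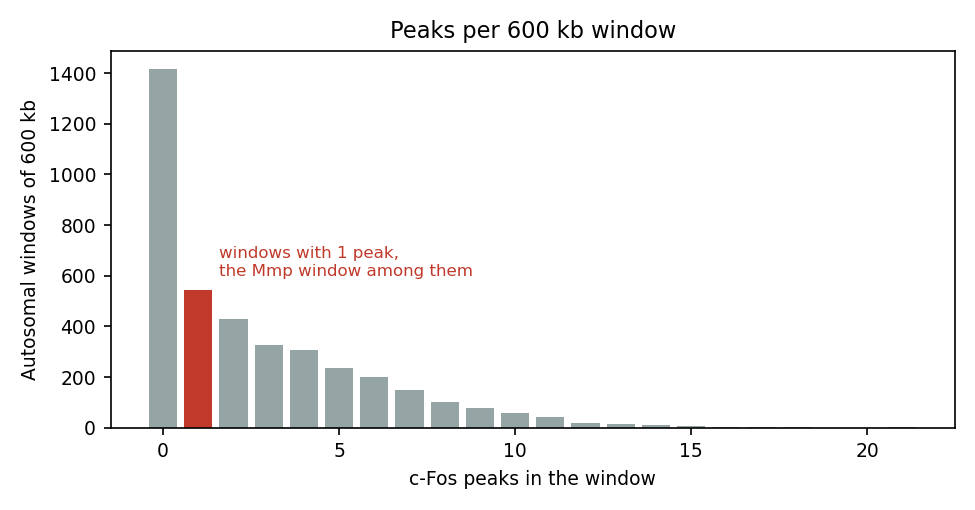
Number of autosomal windows of 600 kb (vertical axis) by the number of c-Fos peaks they hold (horizontal axis). The red bar is the 543 windows with 1 peak, to which the Mmp window belongs, beside 1417 windows with none and 2006 with more.

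The windows next to the cluster were empty or nearly so. The 6 windows of 600 kb just before it held no peak. Runs of at least 6 empty windows occurred 60 times on the autosomes, and the longest run had 17. The windows that followed held 1, 1, 4, 0 and 0 peaks in order along the chromosome, so the cluster sat at the end of an empty stretch and before a sparse one.

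The promoters of the cluster carried the AP-1 letters often, although the list placed no peak at Mmp13 or Mmp3. Of the 5 genes, 4 had a TGANTCA match between position -250 and +50 of a RefSeq start: Mmp13, Mmp3, Mmp10 and Mmp12, the last at its second start only. By start this was 4 of 6, where 7.81% of the 32851 RefSeq promoters of the same length in the table had a match. In each of the 4 genes the match lay in the 100 bases before the start, where 2.73% of all promoters had one. It lay from -35 to -29 in Mmp13, from -46 to -40 in Mmp3, from -63 to -57 in Mmp10 and from -44 to -38 in Mmp12. Mmp8 had no match in this window. A match describes letters in the sequence and is no measurement of binding.

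AP-1 letters were also found beyond these 5 genes. In the gene table, the protein-coding genes in order along chromosome 9 are Dcun1d5, Mmp13, Mmp12, Mmp1b, Mmp3, Mmp1a, Mmp10, Mmp8, Mmp27, Mmp20, Mmp7 and Tmem123, so 10 metalloproteinase genes lie in a row. Of these 10 genes, 8 had an AP-1 match. They were the 4 above, Mmp1a and Mmp1b (both named as interstitial collagenases), Mmp20 (enamelysin, of tooth enamel) and Mmp7 (matrilysin). Mmp8 and Mmp27 had none. Of all 27025 genes with a promoter entry, 8.97% had a match. Counted by start, the cluster had a match at 8 of 12, where 7.81% of all promoters had one. With G or C required in the middle of the motif, 7 of the 12 starts had a match and Mmp20 did not, and 5.20% of all promoters had one. Over the 100 bases before the start, Mmp1a and Mmp1b were the most alike of 66 pairs of starts, with 61.2% identity. The other pairs ran from 41.7% to 56.2%, and unrelated promoters were not compared.

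No AP-1 match was found in the promoters on hand of metalloproteinase genes outside the cluster. Of the 13 such genes in the family list, 8 had an entry in the promoter table and 0 of these had the motif (Mmp11, Mmp14, Mmp15, Mmp21, Mmp23, Mmp24, Mmp25 and Mmp28). Mmp2, Mmp9, Mmp16, Mmp17 and Mmp19 had no entry. The 4 genes for the tissue inhibitors of metalloproteinases, Timp1 to Timp4, had 0 matches as well. With 7.81% of all promoters matching, counts of 0 in lists this short are near the background. They do not set these genes apart from other promoters. The cluster, with a match at 8 of 12 starts, was above that share. The lists were not tested against each other.

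Letters that other factors can bind were also counted in these promoters. AGGAAG, an Ets-type motif searched on both strands, was found for Mmp13, Mmp12, Mmp3 and Mmp8, at 4 of 6 starts, where 35.4% of all promoters had it. ACCACA, a Runx-type motif searched on both strands, was found at 1 of 6 starts, that of Mmp13, from -118 to -113, where 16.8% of all promoters had it. Mmp13 was the only one of the 5 with the AP-1, Ets-type and Runx-type letters together. This was not particular to it in the wider cluster. Mmp1b had all of these letters as well, and Mmp7 had them spread over its starts. The cyclic AMP response element TGACGTCA, a related site of AP-1 and ATF factors, was found at 0 of 6 starts, where 1.79% of all promoters had it. None of these motifs overlapped another in the 5 genes.

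**Figure D4:**
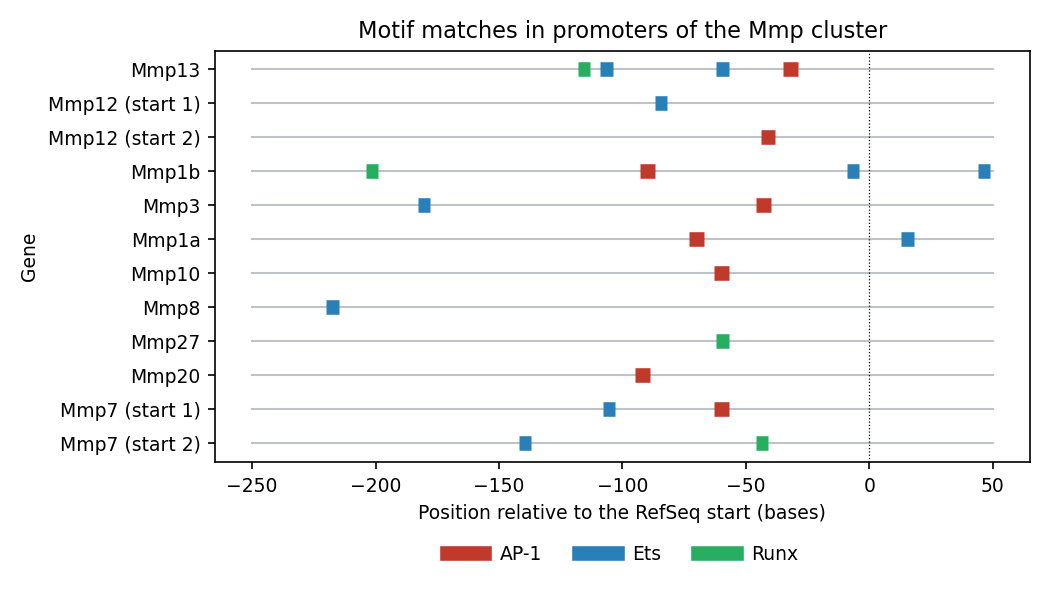
Positions of motif matches in the RefSeq promoters of the 10 metalloproteinase genes of the cluster, 1 line per start, in bases relative to the start (dotted line at 0). AP-1 matches (red) lie in the 100 bases before the start in 8 of the 12 starts, while Ets-type (blue) and Runx-type (green) matches lie at scattered positions.

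What the list can show at this locus has a limit. Read counts per library were not used here, so the depth is unknown, and sites that would score below 50.01 are not listed. That no peak was listed at Mmp13 or Mmp3 says that nothing there reached the list in this library, not that c-Fos was absent.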

How the data were processed

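Peaks came from the only file used here, a list of c-Fos ChIP peaks from 1 library. The score of each peak is the deposited value, on a scale not stated in the file. CASAVA 1.8.2, MACS 1.4.1 and the build mm9 are listed, per the submitters' processing notes, with no role. The aligner, the peak threshold and the part played by the input library are not stated in those notes or in the file. Other values in the deposited file are positions, given here 1-based.

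The window, its size and the approximate Mmp13 and Mmp3 starts were taken from the definition of the region. The region, and so its members, and the gene and motif lists were chosen with earlier results of these data known, although the rule itself uses position alone. Windows of 600 kb were laid end to end on chromosomes 1 to 19, between the first and last peak centres. All peaks of the window and all 5 genes were named, as was each window with 1 peak of as low a score. Motifs were searched on both strands in the 300-base RefSeq promoters (GRCm38.p6), matched by symbol for all 5 genes, for 18 of 23 metalloproteinase genes and for 4 inhibitors. Identity came from global alignment (match 1, mismatch -1, gap opening -2, extension -1). Shares are over complete lists and carry no interval. Coordinates were not converted between builds. Window counts and motif searches were checked on simulated positions and sequences. Alternatives tried were keeping peaks that scored 100 or more, dropping the widest 5%, joining peaks within 2 kb, moving the window by 100 kb and other window layouts. Python 3.11.15, numpy 2.4.6, scipy 1.17.1, Biopython 1.88 and matplotlib 3.10.9 were used.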

Additional observations from a re-analysis of the deposited data

How the results depend on the processing

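Of 32 recomputed values, 25 stayed within 1.5 times a count, score or distance or within the 95% Wilson interval of a share of windows, 7 moved and 0 reversed. The 7 followed from the alternatives' own construction. With a score of at least 100 the Mmp window held 0 peaks, and 100% of windows then had as many peaks and as high a score. The distance to the nearest peak rose from about 300 kb to 1969 kb for Mmp13 and from about 127 kb to 1795 kb for Mmp3. No median or highest score of the window could be given there. Among windows with at least 1 peak, 100% had as many peaks as the Mmp window and 99.9% as high a best score, against 64.3% and 64.2% of all windows. Moving or widening the window by 100 kb left the same single peak, with a score of 50.19. The number of members with an AP-1 match was 4 under both alternatives tried. No paired analysis was possible because a single ChIP library was analysed.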
